A study of Mus musculus with 9 samples.

Results

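The comparison described here sets the testes of mice homozygous for the arginine-to-tryptophan change R264W in PIWIL4 against wild-type testes. Its members are the 3 Piwil4 R264W/R264W and the 3 wild-type libraries of a series of 9, picked by the genotype in the sample labels. The remaining 3 libraries, from Piwil4 WT/R264W testes, were used only to measure how genes move with the stage of spermatogenesis and to estimate the spread between testes. The mice were a CRISPR-Cas9 knock-in made in C57BL/6 zygotes, and the testes were taken whole at 3 weeks of age. Whether littermates were used is not given in the sources used here, so p-values measure only the spread between these testes. All 22337 genes of the deposited table were compared, of which 2706 had no count in any library.

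PIWIL4 is a PIWI protein of male germ cells. It binds piRNAs, small RNAs that match transposons, and in the nucleus of fetal germ cells it brings DNA methylation to transposon copies such as LINE-1. Its PAZ domain holds the end of the piRNA. In the juvenile mouse testis the first wave of spermatogenesis carries germ cells together from spermatogonia through meiosis to round and then elongating spermatids, so that the RNA of a whole testis shifts as each new cell type appears.

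Piwil4 itself was measured at a low level in every testis. It stood at 1.39, 1.18 and 1.02 CPM (counts scaled to library size with TMM factors) in the homozygous testes and at 1.76, 1.66 and 1.59 CPM in the wild-type testes. All 3 homozygous values lay below all 3 wild-type values. The difference on the log2 scale was -0.48 with a standard error of 0.23 (adjusted p = 1.0 in edgeR, by the Benjamini-Hochberg method), so it did not pass the test. An exact two-sided permutation test, which cannot go below 0.1 with 3 testes against 3, gave p = 0.1. Counts per gene cannot show which allele was read, and on an unstranded count reads of Piwil4 (GRCm38 chromosome 9, 14696230 to 14740733, minus strand) could not be told from those of the antisense genes Gm10706 and Gm15586. None of the tested genes whose start lies within 500 kb of that of Piwil4 reached p under 0.05, from Cwc15, a splicing factor (95.0, 104.0 and 86.1 CPM in homozygous against 91.6, 88.7 and 102.0 CPM in wild-type testes), to Kdm4d, a histone demethylase of germ cells (129.0, 129.0 and 161.0 against 163.0, 144.0 and 133.0 CPM).

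The reference sequence around the changed residue is shown because it places the knock-in within the gene. It runs 5′ to 3′ along the coding strand with 45 bases on each side, and the capitals mark codon 264 of the 848-codon transcript in the GENCODE annotation of GRCm38, an arginine codon in exon 7 of 20 at chr9:14727436-14727438. It is the reference allele, not the edited one, and in the longer transcript of 878 codons the residue of that number is not an arginine.
Piwil4 codon 264: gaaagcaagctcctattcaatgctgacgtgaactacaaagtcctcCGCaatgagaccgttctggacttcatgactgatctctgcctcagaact

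Library totals ran from 18.4 to 24.3 M estimated counts in homozygous and from 20.2 to 23.0 M in wild-type testes. Where a gene had no count, 3 counts remain possible, or 0.122 to 0.171 CPM depending on the library, a limit on counting error alone. Mitochondrial genes took 4.08, 3.67 and 2.67% of the counts of homozygous testes 1, 2 and 3, and 2.81, 3.09 and 4.05% of those of wild-type testes 1, 2 and 3. Homozygous testis 1 held RNA of the epididymal gene Crisp1 (883 counts), against 109 counts in wild-type testis 2 and 0 in the other 4 libraries of these genotypes.

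How far the first wave had come was measured with a stage score, the mean log2 CPM of 20 genes that switch on in round spermatids, such as the acrosomal gene Acrv1 and the spermatid kinases Tssk1 and Tssk2. The score was 4.28, 4.96 and 6.24 in homozygous testes 1, 2 and 3 and 6.37, 4.25 and 3.44 in wild-type testes 1, 2 and 3. The homozygous range lay inside the wild-type range. The summed level of 18 elongating spermatid genes moved with the score, at 286.9, 525.2 and 1663 CPM in homozygous testes 1, 2 and 3 and at 1932, 270.5 and 140.9 CPM in wild-type testes 1, 2 and 3. Among them the protamine gene Prm1, which packs sperm DNA, ran from 0.268 to 34.8 CPM in homozygous and from 0.193 to 41.7 CPM in wild-type testes. Prm1 was named after its values were seen, as were the other genes said so below.

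**Figure D1:**
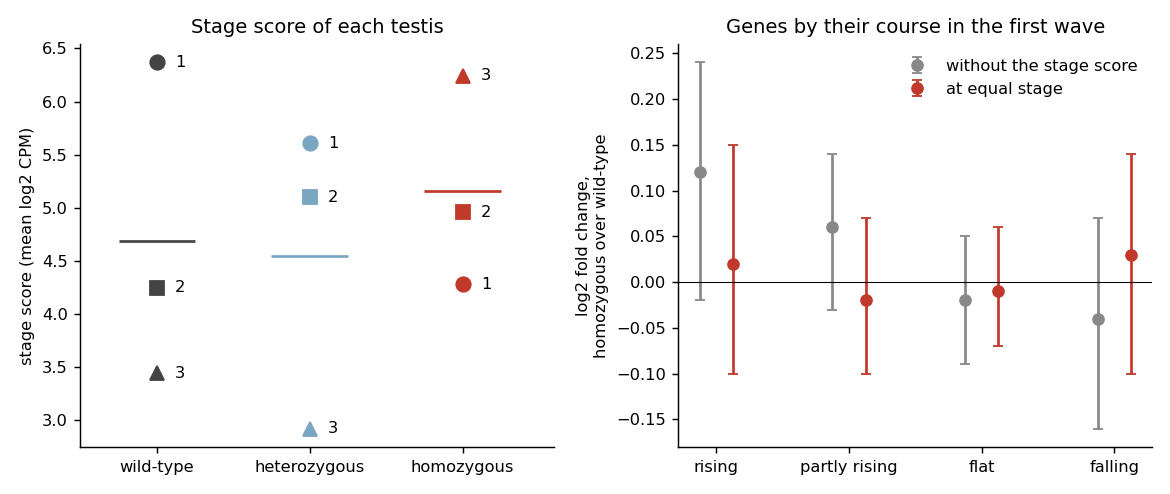
Left, the stage score of each testis (20 round spermatid genes averaged on the log2 CPM scale, numbered by replicate, with a line at the genotype mean). Right, the median log2 fold change of homozygous over wild-type testes in 4 classes of genes, with bars from the lower to the upper quartile, without the stage score (grey) and at equal stage (red). The homozygous scores of 4.28 to 6.24 sit inside the wild-type range of 3.44 to 6.37. The class of rising genes has a median of 0.12 without the score and 0.02 at equal stage. Part of that move is built in, since the class was set by the score that the fit takes out.

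Each gene was therefore compared in both ways, first between the 6 libraries as they are and then at equal stage, with the score as a covariate and all 9 libraries in the fit. Without the score, 71 of 15543 genes tested were higher in homozygous testes at an unadjusted p under 0.05 (0.457%) and 125 were lower (0.804%). At equal stage, 226 of 15759 genes were higher (1.43%) and 208 were lower (1.32%). The median standard error of a log2 fold change was 0.17 without the score and 0.12 with it. No gene (0) passed an adjusted p of 0.05 in edgeR in either comparison. Both directions together, 1.26% and 2.75% of genes were called, below the share of 0.05 that the threshold allows when no gene differs. That share depends on the libraries in the fit. At equal stage with only the 6 libraries of these genotypes, 439 of 15523 genes were higher and 359 lower, together just above 0.05. There, too, no gene passed the adjusted limit. With DESeq2 2 genes passed without the score (Fras1 and Lepr) and 3 at equal stage (these and Gm38431). With a change of more than 2-fold as well, 13 genes were higher (0.0836%) and 15 were lower (0.0965%) without the score, and 33 were higher (0.209%) and 24 were lower (0.152%) at equal stage. The balance of directions differed with the unit and the test. limma on log2(FPKM + 0.1) gave 80 higher and 61 lower genes (56.7% higher, against 36.2% in edgeR) without the score and 338 higher and 114 lower genes (74.8% against 52.1%) at equal stage. With DESeq2's size factors in edgeR the shares higher were 44.7% and 54.9%. Without wild-type testis 1, the most advanced one, the comparison that ignores stage gave 472 higher and 34 lower genes past both limits, whereas at equal stage leaving out any single testis gave 49 to 82 higher and 27 to 46 lower genes.

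The genes were next grouped by their course in the first wave, taken from the heterozygous testes alone. These testes were also in the equal-stage fit, which takes out the same score. A smaller median of the rising genes there is therefore partly built in. Genes that rise steeply with the stage score (by 0.5 log2 units or more for each score unit) had a median log2 fold change of 0.12 without the score and of 0.02 at equal stage, where 11 of 1009 were higher and 6 lower. Genes that rise less steeply went from 0.06 to -0.02, with 25 of 2332 higher and 35 lower at equal stage. Among the 9131 genes with a flat course the median was -0.01, and 107 were higher and 123 lower. Genes that fall as spermatids accumulate had a median of 0.03, with 77 of 3027 higher and 38 lower, and without wild-type testis 1 those counts were 123 and 22. These numbers rest on the measure of stage, since with a score of 22 pachytene spermatocyte genes in its place the median of the steeply rising genes was 0.36 and the falling class had 51 higher and 61 lower genes.

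The genes with the smallest p at equal stage were higher in homozygous testes. Fras1, whose product is an extracellular matrix protein of epithelial basement membranes (GRCm38 chromosome 5, 96373955 to 96784728), was at 23.8, 26.6 and 21.2 CPM in homozygous testes 1, 2 and 3 and at 15, 13.2 and 11.3 CPM in wild-type testes. The groups did not overlap, the heterozygous testes at 14.1 to 15.6 CPM lay close to the wild-type ones, and the log2 fold change at equal stage was 0.85 with a standard error of 0.13 (adjusted p = 0.239 from edgeR with Benjamini-Hochberg adjustment). Lepr, the leptin receptor (chromosome 4, 101717404 to 101815352), was at 9.17, 8.94 and 6.94 CPM in homozygous and at 4.13, 3.82 and 4.25 CPM in wild-type testes, and its log2 fold change was 1.07 with a standard error of 0.19 (adjusted p = 0.527 from edgeR). Every homozygous testis was well above every wild-type testis. Afm encodes afamin, a vitamin E-binding plasma protein of the albumin family (chromosome 5, 90518932 to 90553543), and was at 3.76, 5.51 and 4.21 CPM against 2.23, 1.62 and 0.772 CPM. Its log2 fold change was 1.50 with a standard error of 0.28 (adjusted p = 0.747 from edgeR), and the heterozygous testes at 1.47 to 1.9 CPM fell within the wild-type range. Without the score the estimates for Fras1, Lepr and Afm were 0.85, 1.04 and 1.54. For every other gene named below the adjusted p at equal stage was 0.991 or 1.0 in edgeR, and called means an unadjusted p under 0.05.

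A further set of weakly expressed genes was more than 2-fold higher without overlap. A1cf, an RNA-binding partner of the APOBEC1 editing enzyme, was at 4.65, 4.49 and 3.13 CPM against 2.23, 1.57 and 0.965 CPM (log2 fold change 1.35, standard error 0.28). Yipf7, a Yip1 domain membrane protein of the early secretory pathway (chromosome 5, 69516671 to 69542648), was at 1.12, 0.857 and 1.59 CPM against 0.371, 0.245 and 0 CPM (log2 fold change 2.41, standard error 0.61), from at most 28 counts a library. The low counts leave its size imprecise, and its estimate ran from 1.92 to 3.07 as single testes were left out. Arhgef19, a guanine nucleotide exchange factor of small GTPases (0.761, 1.59 and 0.968 against 0.325, 0.392 and 0.483 CPM), and the homeobox gene Hoxc10 (0.671, 0.653 and 0.285 against 0.186, 0.147 and 0.193 CPM) had log2 fold changes of 1.50 and 1.70. Btbd35f5, of a multicopy family whose copies can share reads, was at 1.39, 2.08 and 4.33 CPM against 1.25, 0.49 and 0 CPM, and was called only at equal stage (log2 fold change 2.05, standard error 0.63, against 2.13 and 1.01 without the score). Gm38431 (log2 fold change 1.19, standard error 0.24) overlaps Fdx1l and Raver1 on its own strand, A1cf overlaps Gm19241 and Hoxc10 overlaps Hoxc5, so their reads may be shared with those genes. The same holds for Fras1, which overlaps Gm42605 on its own strand. On an unstranded count it also holds for Fras1 with the antisense genes Gm33050 and Gm42604, and for Afm with the antisense gene Gm42109. Under every alternative run for them at equal stage, 16 to 20 a gene, Fras1, Lepr, Afm, A1cf, Yipf7, Arhgef19, Hoxc10, Btbd35f5 and Gm38431 stayed called. The alternatives reuse the same testes, so staying called is not separate support. Hoxc10 did not pass the count filter of the main comparison without the score. Yipf7, Arhgef19, Hoxc10 and Btbd35f5 were too weak in wild-type testes to pass the filter on those alone.

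**Figure D2:**
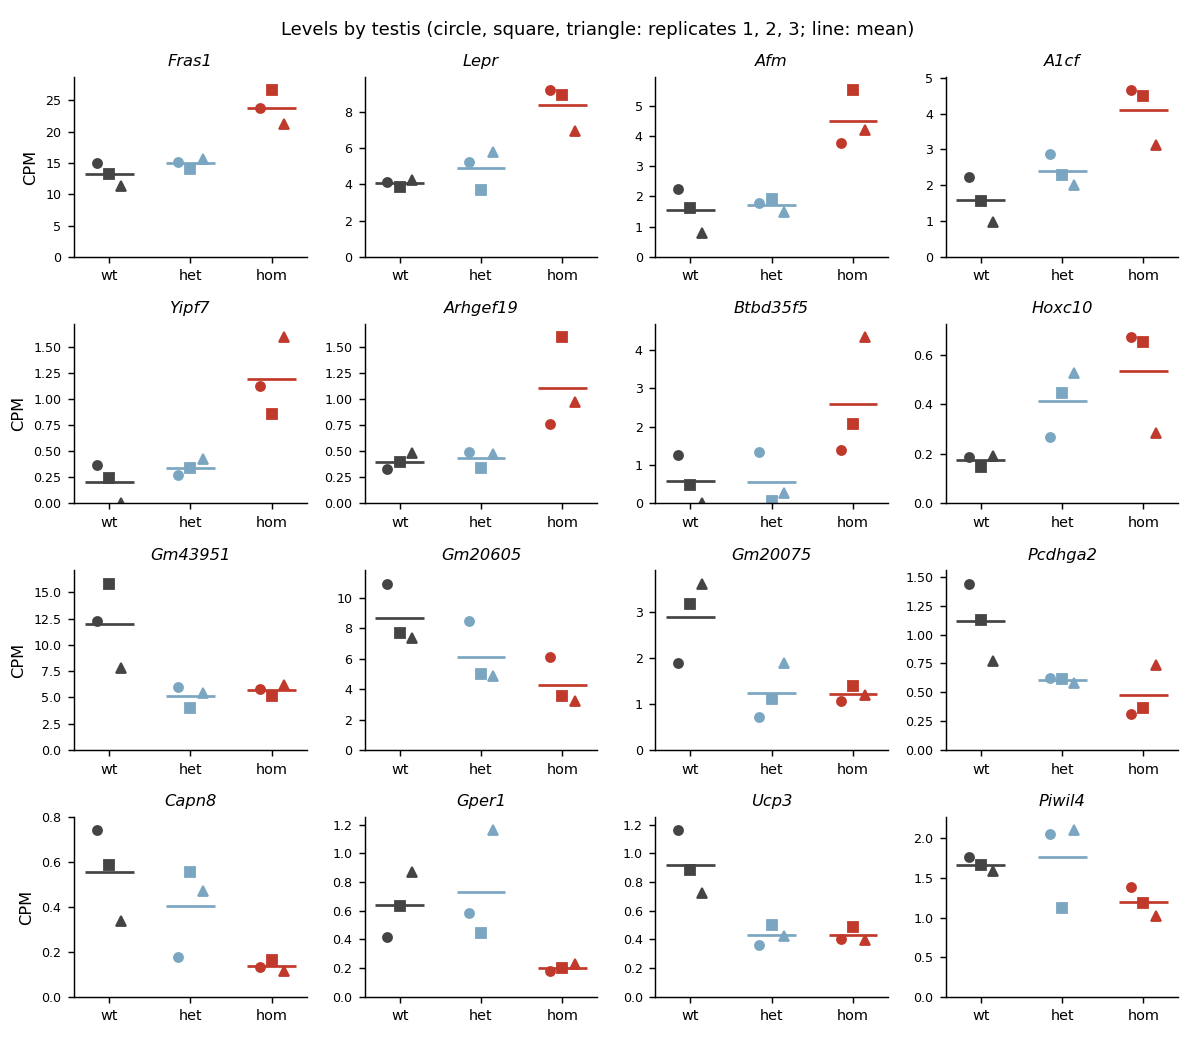
CPM of 16 genes in each testis, with wild-type (wt), heterozygous (het) and homozygous (hom) testes side by side, replicates 1, 2 and 3 as circle, square and triangle, and a line at the mean. The upper 8 genes are higher in all 3 homozygous than in all 3 wild-type testes, the next 7 are lower in all 3, and Piwil4 stands last.

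The leading genes more than 2-fold lower in homozygous testes without overlap were of lower level or of uncertain identity. Gm43951 was at 5.82, 5.1 and 6.15 CPM in homozygous and at 12.3, 15.8 and 7.82 CPM in wild-type testes (log2 fold change -1.10, standard error 0.23), but it overlaps 4933427D14Rik on the same strand. The heterozygous testes, at 4.02 to 6.01 CPM, were also all below the wild-type ones. Gm20605 (log2 fold change -1.03) overlaps Lrch4 and Sap25, Gm20075 (-1.05) overlaps Sv2c, and Pcdhga2 (-1.37), one of the gamma protocadherins of neuronal cell adhesion, shares exons with the rest of its cluster on chromosome 18. Reads of all of these could be divided between the overlapping genes by the counting step.

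Outside these, Capn8, a calpain protease, was at 0.134, 0.163 and 0.114 CPM in homozygous against 0.742, 0.588 and 0.338 CPM in wild-type testes (log2 fold change -1.97). Gper1, a membrane receptor for estrogen, was at 0.179, 0.204 and 0.228 CPM against 0.418, 0.636 and 0.869 CPM (-1.45), and Ucp3, a mitochondrial uncoupling protein of muscle and brown fat, at 0.403, 0.49 and 0.398 CPM against 1.16, 0.881 and 0.724 CPM (-1.11). These rest on 2 to 25 counts a library, and Capn8 and Gper1 did not pass the count filter of the main comparison without the score. Capn8 and Ucp3 were not called without wild-type testis 1 (-1.51 and -0.88), nor was Ucp3 without homozygous testis 3 (-1.01) or Gper1 without homozygous testis 1 (-1.19). Gm20906, on the Y chromosome, had no count in any homozygous testis and 20, 8 and 8 counts in wild-type testes 1, 2 and 3, at least 3.99-fold lower when the homozygous mean is set to 3 counts per library. Heterozygous testis 3 also had no count of it, and as a member of a multicopy Y region it may share reads with near-identical copies. The comparison without the score also put Guca1b and Gm3264 among its leading higher genes (log2 fold changes 1.33 and 1.73, and 1.35 and 1.71 at equal stage). Its leading lower genes also held Rab39b, the complement gene Hc and the matrilin gene Matn4 (-1.51, -1.12 and -1.18, and -1.43, -1.05 and -1.16 at equal stage).

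Germ cells were then followed from stem cell to spermatid. Most single calls within the lists that follow were fragile: of the members named as called, only Adar, Rhox5, Ndufa4, Dnah5 and Olfr1385 stayed called whichever single testis was left out. At equal stage, where 1.43% of all genes were higher and 1.32% lower at an unadjusted p under 0.05, none of 21 genes of undifferentiated spermatogonia, 16 of differentiating spermatogonia, 39 of the meiotic chromosome axis and recombination and 22 of pachytene spermatocytes was called in either direction. The median log2 fold changes of these lists were -0.01, -0.07, -0.05 and -0.02, beside -0.01 over all genes. Id4, a regulator of spermatogonial stem cells, was at 72.3, 68.8 and 59.3 CPM in homozygous and at 66.1, 68.4 and 69.8 CPM in wild-type testes. The receptor Kit of differentiating spermatogonia was at 43.2, 32.3 and 33.5 CPM against 33.3, 46.0 and 46.1 CPM (log2 fold change -0.14, standard error 0.12). Both pairs of groups overlapped.

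In meiosis, Sycp3 of the synaptonemal complex was at 417.0, 372.0 and 278.0 CPM against 323.0, 323.0 and 409.0 CPM, with a log2 fold change of 0.07 and a standard error of 0.10. Mcmdc2, which acts in meiotic recombination, had the smallest p of its list (log2 fold change -0.29, standard error 0.15). Ldhc, the lactate dehydrogenase of spermatocytes and sperm, was at 2550, 2740 and 3160 CPM against 3210, 2660 and 2510 CPM and followed the score in both genotypes. The 17 elongating spermatid genes tested had a median of 0.02 at equal stage. Among 31 ADAM metalloproteases, membrane proteins of which several act at the sperm surface, and 2 testis-specific serine kinases outside the score, none was called.

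The piRNA pathway in which PIWIL4 works was measured with 29 genes of PIWI and Tudor proteins and piRNA processing. None was called at equal stage, and their median log2 fold change was -0.06. Piwil1, the PIWI protein of pachytene spermatocytes, was at 774.0, 847.0 and 853.0 CPM in homozygous and at 863.0, 889.0 and 907.0 CPM in wild-type testes, without overlap but with a log2 fold change of -0.10 (standard error 0.07). Tdrd12, a Tudor protein of secondary piRNA production, was likewise without overlap (98.6, 94.4 and 90.0 against 106.0, 101.0 and 104.0 CPM, log2 fold change -0.13, standard error 0.07). For scale, the groups did not overlap in 5.57% of all genes tested at equal stage, with 2.14% higher and 3.43% lower, and in 5.58% without the score. Partners named after their values were seen were also close to equal, with log2 fold changes of -0.02 for Piwil2, -0.11 for Tex15 and -0.17 for Spocd1, the last 2 of which link PIWIL4 to DNA methylation.

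Among 18 DNA methyltransferases, their cofactors and TET enzymes, again none was called (median -0.05). Dnmt3c, the methyltransferase of young transposon promoters in male germ cells, was at 2.15, 2.0 and 2.33 CPM against 1.62, 1.47 and 1.59 CPM (log2 fold change 0.47, standard error 0.26). Tet2 and Tet1, which oxidize methylcytosine, were at 5.39 to 6.04 against 6.31 to 10.3 CPM and at 3.96 to 4.47 against 4.64 to 6.18 CPM (log2 fold changes -0.35 and -0.32, standard errors 0.18 and 0.22). In these 3 genes, and in Uhrf1, the cofactor of maintenance methylation (log2 fold change -0.04, standard error 0.06), the groups did not overlap, 1 higher and 3 lower of the 18, and none passed the test. Of 24 genes of H3K9 methylation, the HUSH complex and LINE-1 restriction, Adar, which edits double-stranded RNA, was lower, at 24.5, 22.6 and 18.9 CPM against 24.3, 29.4 and 32.7 CPM (log2 fold change -0.32, standard error 0.10). It was not called on the FPKM scale with limma (-0.22 and -0.18). Setdb1 and Morc2a, both needed for H3K9 methylation at transposons, had log2 fold changes of -0.11 and -0.12 (standard errors 0.07 and 0.09).

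Imprinted genes carry methylation set in the germ line, and 1 of 24 was called. Zdbf2 was at 69.6, 73.6 and 62.6 CPM in homozygous and at 85.1, 79.0 and 76.0 CPM in wild-type testes (log2 fold change -0.22, standard error 0.09). Its groups did not overlap, yet it was not called without wild-type testis 1 (log2 fold change -0.08), wild-type testis 2, homozygous testis 1 or homozygous testis 3, nor once the trend with transcript length described below was removed (-0.12). Rasgrf1, an imprinted gene methylated through piRNAs in the male germ line, was at 1.61, 1.84 and 3.87 CPM against 5.85, 1.86 and 1.01 CPM, with a log2 fold change of -0.37 and a standard error of 0.24. Its values followed the stage score in both genotypes and overlapped.

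The somatic cells of the tubule and the interstitium were described next. In whole-testis RNA fewer cells of a type and less RNA per cell cannot be told apart. Of 24 Sertoli cell genes only Rhox5, an X-linked homeobox gene of Sertoli cells that responds to androgen, was called, at 12.5, 14.4 and 15.3 CPM in homozygous and at 12, 8.47 and 8.11 CPM in wild-type testes. All 3 homozygous values were above the wild-type ones, the log2 fold change at equal stage was 0.49 with a standard error of 0.14, and it stayed called, between 0.42 and 0.57, in all 20 alternatives run. The Sertoli genes of highest level, Clu and Ctsl, had log2 fold changes of -0.02 and 0.10, and Amh and Sox9, named after their values were seen, of 0.13 and -0.11.

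Leydig cell and steroid enzyme genes had the largest share of calls among the lists at equal stage. There 5 of 15 were higher and none lower, with a median log2 fold change of 0.26, and without the score 2 were higher with the same median. Fdxr, which feeds electrons to the mitochondrial steroid enzymes, was at 29.4, 29.7 and 30.6 CPM in homozygous and at 26.0, 25.7 and 23.3 CPM in wild-type testes (log2 fold change 0.26, standard error 0.10) and was the only one of them whose groups did not overlap. Hsd3b1, a steroid dehydrogenase, was at 81.8, 82.5 and 68.6 CPM against 64.2, 70.9 and 50.9 CPM (0.30, standard error 0.13). Srd5a1, the steroid reductase of immature Leydig cells, was at 15.7, 24.6 and 22.5 CPM against 16.4, 14.3 and 16.7 CPM (0.41, standard error 0.17). In Srd5a1 homozygous testis 1 stood within the wild-type values. The same was true of Hao2, a hydroxyacid oxidase counted with the list, at 1.61, 3.63 and 4.38 CPM against 1.81, 1.47 and 1.35 CPM (0.96, standard error 0.33).

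Cyp17a1, the hydroxylase and lyase that leads to androgens, was the fifth gene called and was named after its values were seen. It was at 10.1, 96.7 and 87.4 CPM in homozygous testes 1, 2 and 3, at 53.4, 4.55 and 9.17 CPM in wild-type testes and at 56.8, 5.81 and 4.99 CPM in heterozygous testes (log2 fold change 1.48, standard error 0.65). High and low testes thus occurred in each genotype. The stage score was 4.96 and 6.24 in the high homozygous testes 2 and 3. It was 6.37 in wild-type testis 1 and 5.61 in heterozygous testis 1, which were also high. The low testes had scores from 2.92 (heterozygous testis 3) to 5.10 (heterozygous testis 2). Without homozygous testis 2 the log2 fold change of Cyp17a1 was 0.47 and it was not called. Cyp11a1, which makes the first steroid from cholesterol, was likewise highest in homozygous testes 2 and 3 and wild-type testis 1 (25.2, 88.0 and 88.6 against 70.3, 21.4 and 27.3 CPM) and was not called (0.62, standard error 0.31), nor were Hsd3b6 (0.62, standard error 0.31), Star (-0.19), the luteinizing hormone receptor Lhcgr (0.01) and Nr5a1 (-0.06), all named after their values were seen. Insl3, the peptide hormone of Leydig cells and one of the most abundant of the list, was at 86.2, 59.4 and 99.7 CPM against 119.0, 55.4 and 25 CPM (0.31, standard error 0.42). The summed level of the list was 474.2, 685.7 and 656.5 CPM in homozygous and 621.6, 402.4 and 393.1 CPM in wild-type testes, so the groups overlapped. Without homozygous testis 2 none of the list was called (0, median 0.16), without homozygous testis 3 2 were called, and without any of the 3 wild-type testes 3 were called.

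**Figure D3:**
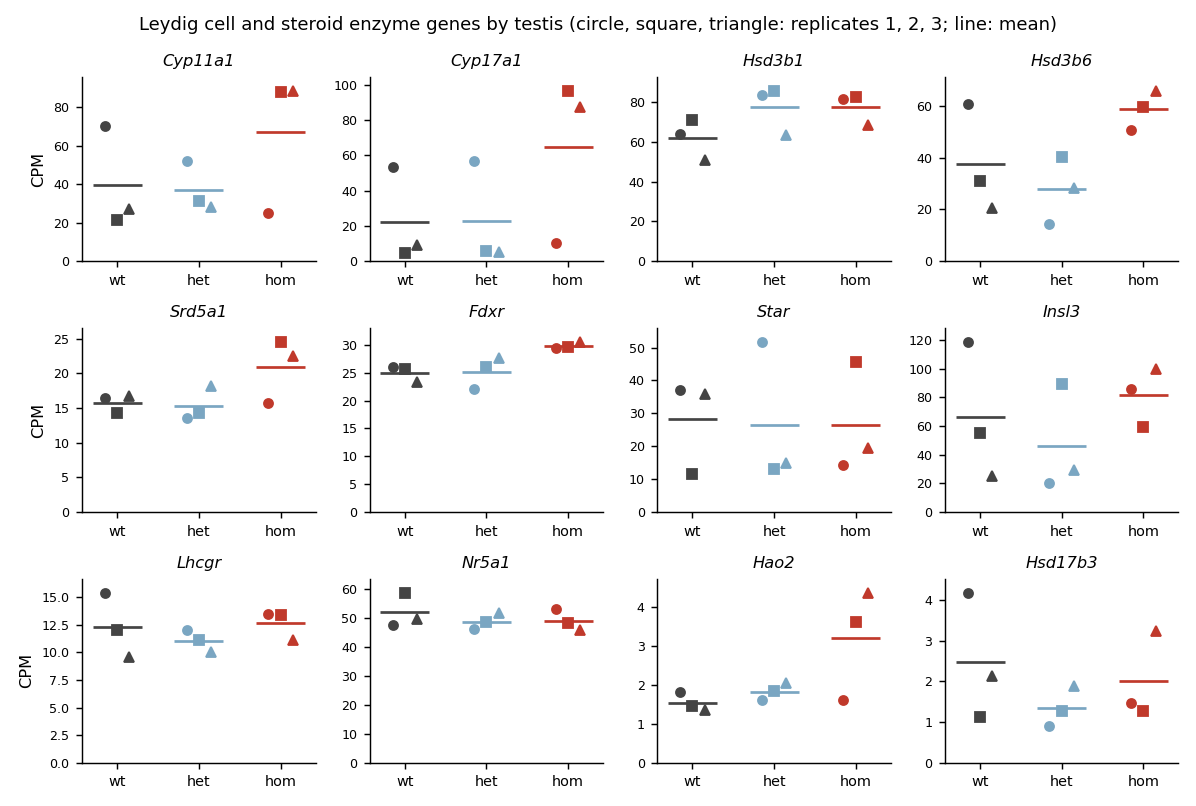
CPM of 12 Leydig cell and steroid enzyme genes in each testis, by genotype (wt, het, hom), with replicates 1, 2 and 3 as circle, square and triangle and a line at the mean. Cyp11a1, Cyp17a1 and Star vary several-fold within a genotype, whereas Fdxr sits between 29.4 and 30.6 CPM in homozygous and between 23.3 and 26.0 CPM in wild-type testes.

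Other interstitial cells and the pathways that feed steroid synthesis gave no calls. None of 14 myoid, 16 endothelial, 16 macrophage and 5 lymphocyte genes reached p under 0.05, with medians of 0.06, 0.13, 0.16 and -0.17. Of 23 genes of cholesterol synthesis and uptake none was called, with a median of 0.08. Of 14 retinoic acid genes Aldh1a1, which makes retinoic acid, was higher, at 499.0, 481.0 and 420.0 CPM against 417.0, 436.0 and 415.0 CPM (0.16, standard error 0.07). None of 22 genes of the p53 and DNA damage response (median 0.07) and none of 36 genes of the extracellular matrix (median 0.07) was called. The matrix list was unstable to single testes, with 4 lower genes without wild-type testis 1 and 8 higher genes without wild-type testis 2.

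**Figure D4:**
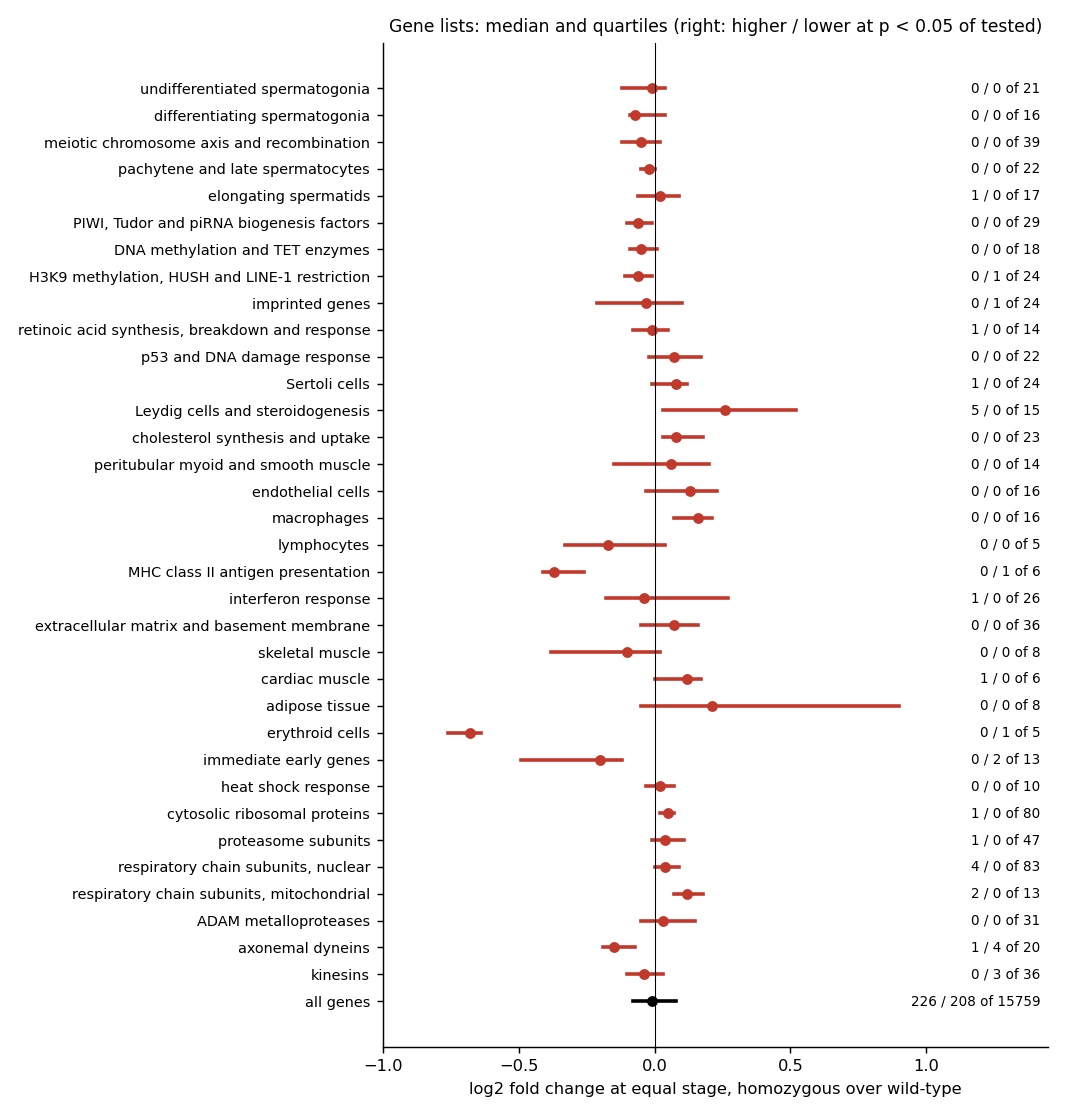
Median (point) and quartiles (line) of the log2 fold change of homozygous over wild-type testes at equal stage in each gene list, with the number higher and lower at an unadjusted p under 0.05 of the number tested on the right, and all genes at the bottom. The Leydig cell list lies to the right of 0 with 5 of 15 genes higher, the axonemal dyneins lie to the left with 4 of 20 lower.

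Lists for blood, immune and tissue-handling signals were counted in the same way. H2-Eb1, which presents antigen, was 1 of 6 class II genes called, at 0.358, 0.245 and 0.398 CPM against 0.603, 0.979 and 0.676 CPM (log2 fold change -1.28, standard error 0.48). It was not called without wild-type testis 2 (-1.01) or homozygous testis 2 (-1.10). Without wild-type testis 1, 3 of the 6 class II genes were lower (median -0.72, against -0.37 with all libraries). Irgm2, an interferon-inducible GTPase, was 1 of 26 interferon genes called (0.51, standard error 0.21), and was not called without wild-type testis 2 or 3 or homozygous testis 1 or 2 (range 0.40 to 0.64). The immediate early genes Egr1 and Btg2, which respond within minutes to a stimulus, were both lower, with log2 fold changes of -0.49 (standard errors 0.17 and 0.21), 2 of 13 in their list. Egr1 was at 8.95, 7.84 and 6.09 CPM against 7.61, 11.8 and 15.6 CPM, with overlap, and the count of lower genes in the list ran from 0 without wild-type testis 3 to 7 without wild-type testis 1. The globin gene Hba-a2 was at 40.6, 21.6 and 15.3 CPM against 32.0, 78.0 and 29.5 CPM (-0.76, standard error 0.33), 1 of 5 erythroid genes, with the highest value in wild-type testis 2, without which its log2 fold change was -0.27 and none of the list was called. Nor was Hba-a2 called without wild-type testis 1, homozygous testis 2 or homozygous testis 3. The count in the list was 4 of 5 lower without wild-type testis 3 (median -1.08), homozygous testis 1 (-1.04) or heterozygous testis 2 (-0.67).

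Neighbouring tissues were looked for as well. The summed level of 14 epididymal genes was 54.63 CPM in homozygous testis 1 and at most 12.04 CPM in the other 5 libraries of these genotypes, and none of the 3 members tested was called. In skeletal muscle and adipose lists, with 8 genes tested each, none was called, and in the cardiac list Myh6, a myosin heavy chain, was 1 of 6 (4.88, 8.45 and 6.6 against 3.2, 3.87 and 6.42 CPM, log2 fold change 0.65, standard error 0.26). Myh6 was called neither without wild-type testis 1 (0.39) or 2 nor without homozygous testis 2 or 3. The heat shock list, with none of 10 called, had a median of 0.02, and Hsp90aa1 was at 4210, 4220 and 3910 CPM against 3960, 3960 and 4330 CPM.

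Genes of energy metabolism and protein turnover differed little. Of 83 nuclear genes of the respiratory chain 4 were higher and none lower, with a median of 0.04. Ndufa4, a subunit of the cytochrome oxidase complex, was at 24.2, 23.7 and 22.9 CPM against 18.4, 17.4 and 21.9 CPM, without overlap (log2 fold change 0.32, standard error 0.10). Uqcr11 of complex III (0.39, standard error 0.12), Atp5g2 of the ATP synthase (0.20, standard error 0.09) and Cox7a1, named after its values were seen (0.88, standard error 0.38), overlapped. Of the 13 protein genes of the mitochondrial genome mt-Nd4 and mt-Nd6, both of complex I, were higher (0.18 and 0.24, standard errors 0.08 and 0.11), and the log2 fold change of all 13 was above 0. The mitochondrial share of counts given above was lowest in the testis with the highest stage score in both genotypes. Of the 13 genes 7 were called without homozygous testis 3 and none without wild-type testis 2, homozygous testis 1 or homozygous testis 2. Of 80 ribosomal protein genes only Rpl10 was called (0.24, standard error 0.09), and of 47 proteasome subunits only the activator subunit Psme2 (0.30, standard error 0.11).

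Motor proteins were counted at equal stage. Of 20 axonemal dyneins, the heavy chains and partners that drive the sperm tail, 4 were lower and 1 higher, with a median of -0.15. Dnah2 was at 262.0, 272.0 and 313.0 CPM in homozygous and at 333.0, 360.0 and 294.0 CPM in wild-type testes (log2 fold change -0.25, standard error 0.08), and Dnah7a at 165.0, 175.0 and 187.0 CPM against 222.0, 196.0 and 183.0 CPM (-0.22, standard error 0.07). Dnah10 and Dnah7c, named after their values were seen, were lower by 0.24 and by 0.18 on the log2 scale. The groups overlapped in all 4 genes, and the count of lower genes ran from 1 without wild-type testis 2 or homozygous testis 1 to 9 without wild-type testis 3. Dnah5 went the other way, at 2.59, 3.71 and 4.67 CPM against 3.02, 0.49 and 0.338 CPM (1.59, standard error 0.35), with wild-type testis 1 among the homozygous values, and stayed called in the 17 alternatives run for it. Of 36 kinesins 3 were lower, namely Kif5a, a motor of long-range transport (-0.42, standard error 0.15), the spindle motor Kif11 (-0.16, standard error 0.07) and Kif24 (-0.17, standard error 0.08). In these 3 kinesin genes all homozygous testes were below all wild-type testes, yet none was called without homozygous testis 1.

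Dynein heavy chains have some of the longest transcripts and respiratory chain genes some of the shortest, so the calls were also set against transcript length. Of the 3146 genes with transcripts of 1827 bases or less, 79 were higher (2.51%) and 26 lower (0.826%) at equal stage, and of the 3146 with more than 5187 bases, 24 were higher (0.763%) and 81 lower (2.57%). The medians were 0.04 and -0.05. Leaving out single libraries gave 52 higher genes among the shortest without homozygous testis 2 and 123 without heterozygous testis 1, and 42 lower genes among the longest without homozygous testis 1 and 147 without heterozygous testis 2. The shortest genes deviated from the mean of all 9 testes by -0.026, 0.043 and 0.103 on the log2 scale in homozygous testes 1, 2 and 3 and by 0.049, -0.067 and -0.065 in wild-type testes 1, 2 and 3, and the heterozygous testes spread from -0.049 to 0.099. With the length trend of each library removed, the shortest genes gave 44 higher and 43 lower and the longest 47 higher and 40 lower.

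Of the 434 genes called at equal stage, 329 were among the 398 called with the length trend removed. The dyneins then had 1 higher and 0 lower genes with a median of -0.05, the kinesins 1 lower, the nuclear respiratory genes 2 higher and the mitochondrial ones 0, and the median of the ribosomal genes went from 0.05 to 0.0. The Leydig cell list had 4 higher genes with a median of 0.23, and Dnah5 and Rhox5 stayed called (1.69 and 0.42). Homozygous testis 1 and wild-type testis 1 went against the sign of the other testes of their genotypes in this trend.

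**Figure D5:**
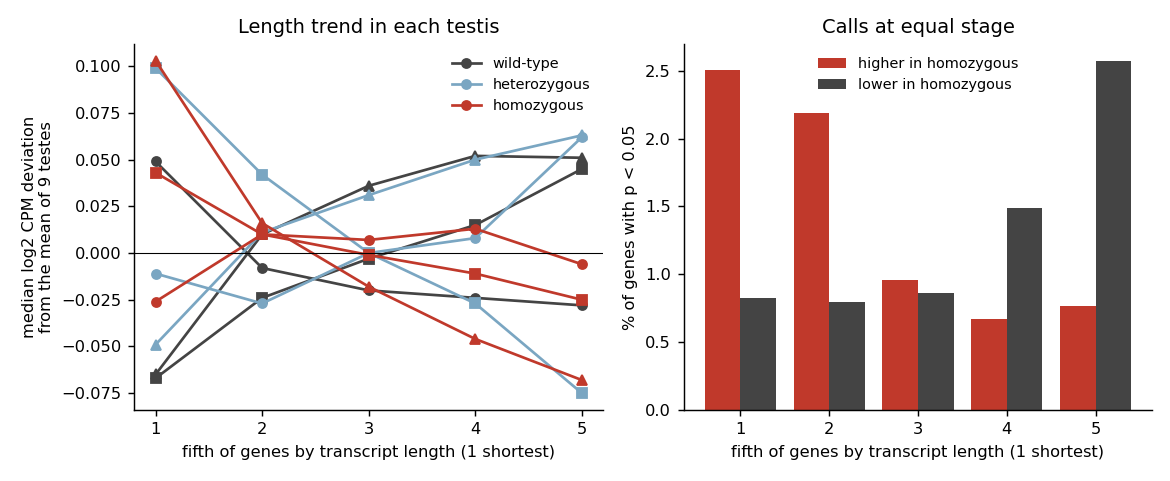
Left, the median deviation of log2 CPM from the mean of the 9 testes in 5 groups of genes of equal size ordered by transcript length, with a line for each testis (circle, square and triangle for replicates 1, 2 and 3). Right, the share of each group higher (red) or lower (dark grey) in homozygous testes at an unadjusted p under 0.05 at equal stage. Higher genes fall from 2.51% to 0.763% and lower genes climb from 0.826% to 2.57% from the shortest to the longest group.

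Chromosomes were compared last. On the X chromosome 24 of 726 genes were higher (3.31%) and 6 lower (0.826%) at equal stage, with a median of 0.03, while on the autosomes 195 of 14882 were higher (1.31%) and 198 lower (1.33%), with a median of -0.01. Without the score the X chromosome had 6 higher and 11 lower genes. X-linked genes are silenced in spermatocytes, so their level in a whole testis depends on its cell types. Rhox5 and Rab39b are X-linked, as are 3 genes named after their values were seen, the progesterone-binding protein Pgrmc1 (log2 fold change 0.18), the sugar transferase Ogt (-0.27) and the Mediator subunit Med12 (-0.30). The count of higher genes ran from 10 without homozygous testis 2 to 41 without heterozygous testis 1, and with both the spermatid and the pachytene score in the fit it was 20, beside 12 lower. The median was then -0.01. On the Y chromosome 2 of 108 genes were higher and 2 lower.

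Large gene families were counted too. Of 377 zinc finger genes named Zfp, 1 was higher and 4 were lower at equal stage, among them Zfp445, which helps keep imprints (118.0, 121.0 and 106.0 against 124.0, 135.0 and 137.0 CPM, log2 fold change -0.17, standard error 0.08). Of 43 olfactory receptor genes with enough counts, Olfr1385 was higher (42.5, 44.7 and 35.5 against 36.6, 23.8 and 26.4 CPM, 0.48, standard error 0.14), and Olfr639 and Olfr735 were lower (-0.46 and -1.01, standard errors 0.19 and 0.45). Olfr639 was not called without wild-type testis 1 (-0.20), wild-type testis 3 or homozygous testis 2 or 3, whereas Olfr1385 stayed called in all 20 alternatives run. Without the stage score, where 0.457% of all genes were higher and 0.804% lower, the lists held 2 higher Leydig cell genes, 1 higher gene each among Sertoli, nuclear respiratory and olfactory receptor genes, 5 lower Zfp genes and 1 lower gene each among H3K9 methylation, imprinted, class II and kinesin genes.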

How the data were processed

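Whole testes of 3-week-old mice were profiled by poly-A-selected RNA-seq, with 3 libraries per genotype. The deposited table holds estimated counts per gene, which the authors made with fastp 0.18.0 and StringTie 1.3.1 (89.2% were whole numbers), beside FPKM values the authors computed from them. The submitters' notes name mm39, whereas gene positions given here are those of a GENCODE annotation of GRCm38 that held 99.5% of the gene identifiers. Whether counting used strand is not given in the sources used here.

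Estimated counts were rounded and tested with edgeR 4.0.16 in R 4.3.3 (quasi-likelihood test, filterByExpr, TMM, Benjamini-Hochberg adjustment). The first fit held the 6 homozygous and wild-type libraries. The second held all 9 with the stage score as a covariate, and did not test the 20 genes of the score. Single genes and members of lists are said to be called, higher or lower at an unadjusted p under 0.05. The genes whose adjusted p was below 0.05, and those that were called and changed more than 2-fold, were counted as well. The fits were also run on counts simulated from their own model with known changes. Such counts cannot show whether that model holds in these testes. Named genes were Piwil4, in each fit the leading 8 in either direction by p, if past 2-fold and without overlap, any gene past the adjusted limit, up to 3 genes of each list by p and 2 by FPKM, Afm, Yipf7, Lepr and Fras1, and genes starting within 500 kb of Piwil4. The 39 lists (29 written out, 10 by name pattern, with 558 of 567 written names matched) and the genes were chosen with earlier results of these data known. Some genes that the rule names are not reported here.

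Alternatives were DESeq2 1.42.0, its size factors, other count filters, limma 3.58.1 on log2(FPKM + 0.1) and log2(FPKM + 1) where FPKM averaged at least 0.5, leaving out each library, a replicate block, other libraries or scores in the fit, and, chosen after seeing the data, removal of each library's trend of log2 CPM with transcript length.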

Additional observations from a re-analysis of the deposited data

How the results depend on the processing

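Past both limits, the comparison without the stage score gave 13 higher and 15 lower genes, and the one at equal stage 33 and 24. Without the score, DESeq2 gave 2 genes past the adjusted limit and 4 lower genes, no filter on low counts gave 53 higher and 47 lower, at least 10 counts in every library gave 6 and 3, limma on log2(FPKM + 0.1) gave 4 lower, and limma on log2(FPKM + 1) gave 1 higher and 0 lower. At equal stage, DESeq2 gave 3 adjusted, 16 higher and 9 lower genes, no filter gave 2 adjusted (Fras1 and Galnt2l), 111 higher and 53 lower, at least 10 counts gave 8 and 5, and limma gave 16 and 4 with a pseudocount of 0.1 and 1 and 1 with a pseudocount of 1. Leaving out single libraries gave 9 to 472 higher and 14 to 34 lower genes without the score, the top of both ranges without wild-type testis 1, and 49 to 82 higher and 27 to 46 lower at equal stage. The causes were not tested.

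Replicate numbers were not treated as pairs. The deviations of same-numbered homozygous and wild-type testes from their genotype means had correlations of -0.74, 0.07 and -0.74. Those deviations also carry the stage of each testis, so they cannot show whether same-numbered testes shared a litter or batch. With the replicate block, 9 higher and 9 lower genes passed both limits without the score and 47 and 35 at equal stage, with 0 past the adjusted limit.

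Some genes changed sign, all without the score. Zdbf2 went from -0.22 to 0.12 and 0.10 with limma, and mt-Nd4 from 0.10 to -0.03 (range -0.03 to 0.23 over single testes left out) and Rpl10 from 0.14 to -0.02 (range -0.02 to 0.29), both without wild-type testis 1. Of 1894 gene values under alternatives, 1513 kept their direction and side of the threshold, 345 lost the threshold, 32 gained it and 4 reversed. Depth limits genes near 3 counts, such as Yipf7, Capn8 and Gm20906.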

Other observations

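Pathways of the KEGG collection with at least 20 genes tested were counted in the same way, 303 in all, and those named here were picked after their counts were seen and carry no test. In glyoxylate and dicarboxylate metabolism 4 of 29 genes were higher at equal stage at an unadjusted p under 0.05 (Hao2, Mdh1, Grhpr and Mmut), beside 1.43% of all genes, in the citrate cycle 3 of 32 (Idh1, Idh2 and Mdh1) and in steroid hormone biosynthesis 3 of 30 (Srd5a1, Hsd3b1 and Cyp17a1). Glutathione metabolism, which detoxifies peroxides and electrophiles, had 5 of 53 (Idh1, Idh2, Gpx1, Gstm1 and Gstm7), and the peroxisome had 5 of 76 (Idh1, Idh2, Hao2, Phyh and Mpv17l2). Since Idh1, Idh2, Mdh1 and Hao2 each stand in several of these pathways, their counts are not separate. Nor are they separate from the Leydig cell list, whose called genes include Srd5a1, Hsd3b1, Cyp17a1 and Hao2. None of these 4 was called without homozygous testis 2. With the transcript length trend removed the 5 pathways had 3, 2, 2, 4 and 4 higher genes in that order.

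The mRNA surveillance pathway, which destroys faulty transcripts, had 6 of 90 genes lower and none higher (Smg1, Upf2, Nxf1, Pabpn1, Srrm1 and Ppp2r3a), beside 1.32% of all genes, and 5 with the length trend removed. RNA degradation had 4 lower and 1 higher of 79, and hematopoietic cell lineage 4 lower and none higher of 59 (Gm13305, H2-Eb1, Il1r1 and Epor). With the length trend removed each of these 2 pathways had 3 lower and 1 higher.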
